A study of Mus musculus with 28 samples.

Results

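The 10 genes described here belong to the unfolded protein response and the integrated stress response: Atf4, Ddit3, Xbp1, Ppp1r15a, Hspa5, Hsp90b1, Pdia4, Dnajb9, Dnajc3 and Sdf2l1. They were taken by name, and all 10 are among the 19375 genes listed in all 28 tables of the series. The libraries came from cells sorted from the lungs of wild-type C57BL/6 mice aged 8 weeks and labelled type 2 and type 1 alveolar epithelial cells (AEC2, AEC1), group 2 innate lymphoid cells (ILC2) or basophils. Each cell type had an untreated group, a group given papain, a plant protease that provokes allergic airway inflammation, and a group given papain with FK506 (tacrolimus), a calcineurin inhibitor. Per the labels' protocol, papain went into the nose at 50 µg per mouse per day. FK506 in methyl cellulose went into the peritoneum at 0.2 mg per mouse per day for 3 days and, after a gap of 2 days, for 3 more days together with papain. The labels do not say whether untreated or papain mice received the methyl cellulose. AEC2 and AEC1 had 2 libraries in each group and ILC2 had 3. Basophils had 3 papain libraries, 3 papain with FK506 libraries and a single untreated library whose title names controls 1 and 2.

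The endoplasmic reticulum (ER) folds secreted and membrane proteins, and unfolded protein there is sensed by IRE1, ATF6 and PERK. IRE1 splices the Xbp1 transcript into the form that encodes an active transcription factor, ATF6 is released by proteolysis, and both raise transcription of ER chaperones. PERK and the other kinases of the integrated stress response phosphorylate eIF2alpha, which lowers general translation while translation of Atf4 rises. ATF4 induces Ddit3 and Ppp1r15a, and the product of the latter returns eIF2alpha to its unphosphorylated state. Much of this control acts on splicing, translation and protein, which 3' end counts of transcripts do not read. Secretory cells such as AEC2, which make surfactant proteins, rely on these chaperones.

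The ER stress response element, the site that ATF6 binds with NF-Y, is CCAAT, 9 bases of any kind and CCACG (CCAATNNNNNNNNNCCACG). It was searched on both strands in the 250 bases before to 50 bases after the RefSeq start of each gene (GRCm38.p6). An exact match was present in 3 of the 10 genes and in 39 of 32851 promoters (0.119%). The 3 genes are Hspa5, Dnajc3 and Hsp90b1, which are shown because they are also the 3 whose levels are described at length below. Capitals mark the outer letters of each match, and sequences run 5' to 3' in the direction of the gene.
Hspa5: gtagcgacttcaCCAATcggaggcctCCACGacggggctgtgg
Dnajc3: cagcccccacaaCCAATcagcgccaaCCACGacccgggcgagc
Hsp90b1: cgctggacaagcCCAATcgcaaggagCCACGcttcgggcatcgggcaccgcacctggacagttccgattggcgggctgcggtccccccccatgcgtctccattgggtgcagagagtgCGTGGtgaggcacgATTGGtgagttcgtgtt
The Hspa5 stretch is chr2:34772013-34772055 (plus strand), with the match 65 to 47 bases before the start. The Dnajc3 stretch is chr14:118937815-118937857 (plus strand), with the match 105 to 87 bases before the start. Hsp90b1 holds 2 matches in chr10:86705521-86705668 (minus strand). Its match 212 to 194 bases before the start reads forward, and the other, 107 to 89 bases before it, lies on the opposite strand. No exact match to the second ER stress response element (ATTGG, 1 base of any kind and CCACG, in 0.0365% of promoters), to the XBP1 and ATF6 site TGACGTGG (0.676%) or to the CEBP-ATF response element TGATGNAA (3.97%) was found in the 10 windows. A match describes these letters only.

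Values are CPM as deposited, read counts put on a common scale, which summed to 986818.7 to 992526.5 over the genes listed in AEC tables and to 519768 to 672356.8 in ILC2 and basophil tables. The AEC values correspond to 847513 to 974739 reads per AEC1 library and 1206886 to 1336639 per AEC2 library, and the untreated basophil value to 2078948 reads. The depth of the other libraries is unknown. Genes above 0 numbered 4441 to 6507 in AEC2, 6334 to 7334 in AEC1, 3134 to 7240 in ILC2 and 6401 to 7894 in treated basophils, against 2002 in the untreated basophil library. The 10 genes were listed at 0 in 2 to 3 cases per AEC2 library, in 1 to 3 per AEC1 library, and in up to 7 in the papain replicate 3 of ILC2. A value of 0 means only that the gene was listed at 0, since the glycolysis gene Gapdh also had a 0 in most tables. The last 300 bases of Gapdh are shared with 132 other genes, whereas of the 10 genes only Dnajb9 shares such a stretch, with the pseudogene Gm6568.

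Libraries of the same group were not alike: their log2 values correlated at 0.532 to 0.816 (21 pairs). The AEC2 untreated replicate 2 and the AEC2 papain replicate 2, which belong to different groups, correlated at 0.994. Over genes with at least 20 reads in the pair, their reads differed by a chi-square of 2.51 per gene, against 30.83 to 79.43 in the other 24 pairs tested. The 8 stress response genes above 0 in both had papain-to-untreated ratios of 0.99 to 1.09. These libraries are therefore treated as doubtful, and AEC2 results are also given without them. Several labels went against defining markers. Mcpt8 and Fcer1a were listed at 0 in all 7 basophil libraries, while Csf1r, a macrophage gene, stood at up to 1517.5 CPM there. Ager, an AEC1 gene, stood at 37.1 to 114.4 CPM in AEC1 and at 1384 to 3505.7 CPM in AEC2. The 10 AEC1 markers, Ager included, summed to 784.2 to 1110.8 CPM in AEC1 (3 to 6 at 0). In AEC2 they summed to 1731 to 4191.7 CPM (4 to 6 at 0). Ager made up most of the AEC2 sum and little of the AEC1 sum, and the rest of the list did not share its direction. Col1a1, a fibroblast gene, stood at 859.1 to 4242.9 CPM in AEC1 and at 0 to 1.7 CPM in AEC2. Gata3 and Il1rl1 were listed at 0 in the ILC2 papain with FK506 replicate 3, where macrophage markers summed to 22568 CPM. Nothing in the labels says that replicates came from separate mice, so p-values measure the spread between these libraries. In bulk libraries fewer cells of a type and less RNA per cell cannot be told apart.

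**Figure D1:**
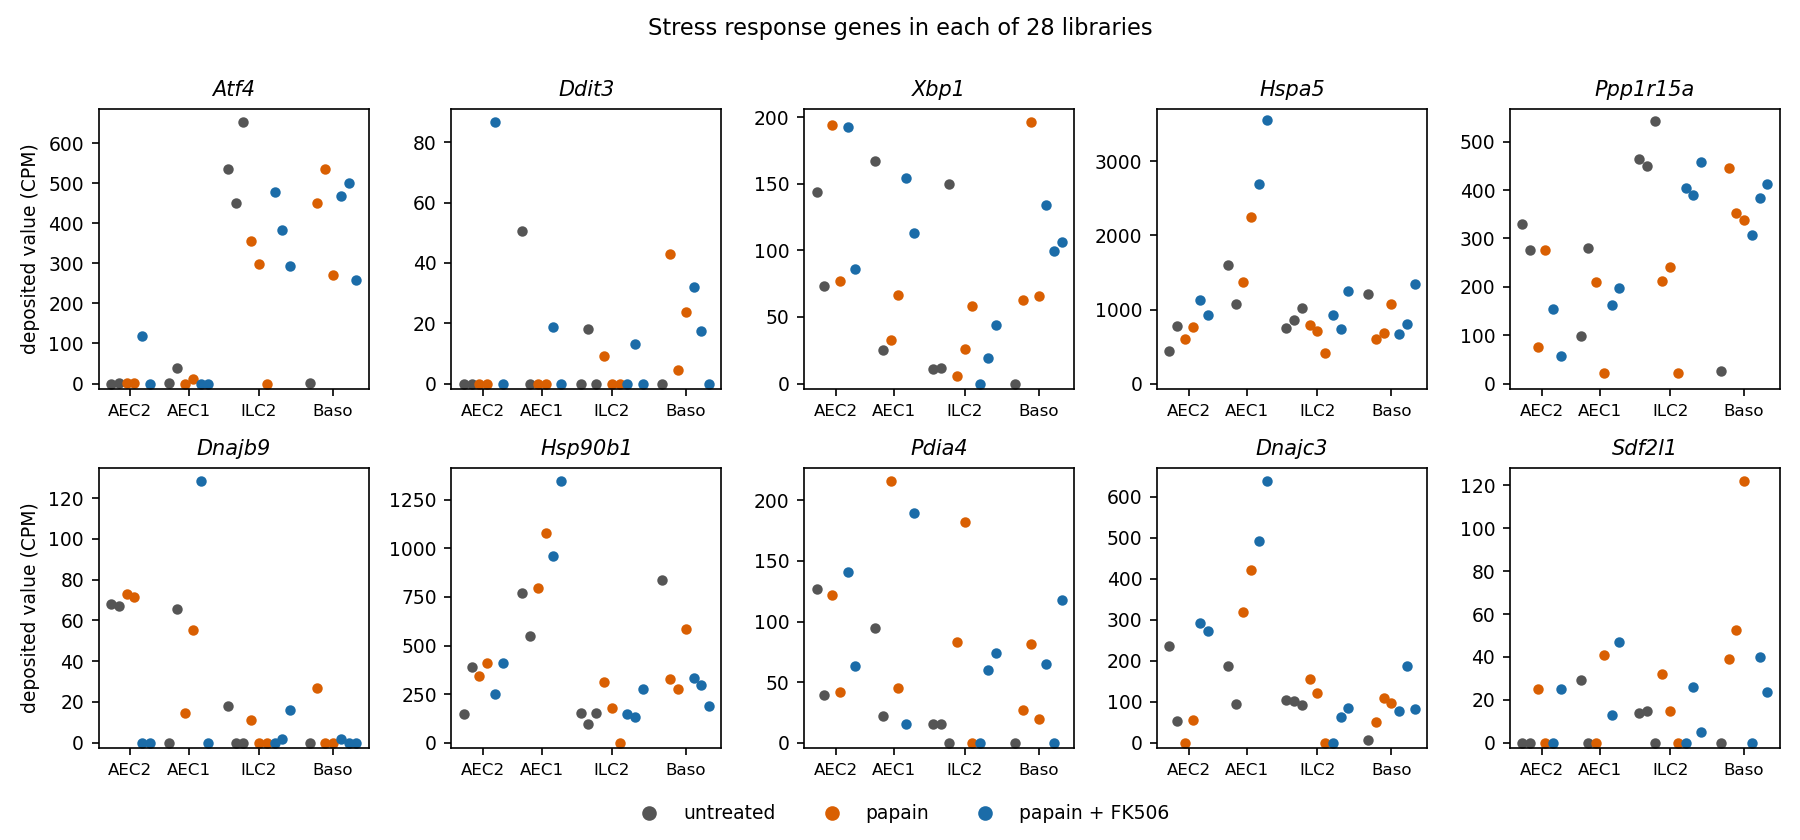
Deposited values (CPM, linear axis, each panel with its own scale) of the 10 genes in all 28 libraries, 1 point per library, coloured by treatment and grouped by cell type. Atf4 stands far higher in most ILC2 and treated basophil libraries than in AEC libraries, most of which are at or near 0, and Hspa5, Hsp90b1 and Dnajc3 reach their highest values in AEC1.

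The transcription factor gene Atf4 (chr15:80255184-80257545) stood at different levels across cell types. Its median was 450.4 CPM over 7 basophil libraries and 384 CPM over 9 ILC2 libraries, against 1.55 CPM over 6 AEC2 and 0.55 CPM over 6 AEC1 libraries. The highest AEC values were 119.8 CPM in the AEC2 papain with FK506 replicate 1 and 39.1 CPM in the AEC1 untreated replicate 2. Those levels cross tables of different file codes and gene lists, so cell type and table cannot be told apart and no test was made. Atf4 was not alone in this: of 350 genes with a median of at least 200 CPM in ILC2 and basophils, 44 had a median of at most 5 CPM in AEC, and 49 of 461 showed the reverse. Ddit3 (chr10:127290793-127296291), which encodes the stress transcription factor CHOP, was listed at 0 in 5 of 6 AEC2, 4 of 6 AEC1, 6 of 9 ILC2 and 2 of 7 basophil libraries. Its highest value, 86.8 CPM, was in the same AEC2 library as the highest AEC value of Atf4. GENCODE M21 annotates 2 overlapping records named Ddit3, and the sources used here do not say how reads in both were counted. The same limit holds for other members whose records overlap another gene. Hsp90b1 overlaps Gm15344 on the same strand (977 bases) and 1810014B01Rik on the opposite strand (4598 bases). Ppp1r15a overlaps Tulp2 on the opposite strand (717 bases).

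Ppp1r15a (chr7:45522917-45526268), which encodes the eIF2alpha phosphatase subunit GADD34, had medians of 404 CPM in ILC2, 351.6 CPM in basophils, 214.45 CPM in AEC2 and 180.2 CPM in AEC1, and the ranges of all 4 overlapped. Xbp1 (chr11:5520641-5525993) had medians of 115.1 CPM in AEC2, 99.4 CPM in basophils, 89.9 CPM in AEC1 and 19 CPM in ILC2, again with overlapping ranges. Hspa5 (chr2:34772090-34776529), which encodes the ER chaperone BiP, stood between 1068.4 and 3552.8 CPM in AEC1 with a median of 1923.05 CPM. Its medians in the other 3 cell types lay between 770.7 and 802.6 CPM, with overlapping ranges. Hsp90b1 (chr10:86690841-86705444), the ER form of HSP90, had a median of 878.85 CPM in AEC1, 366.05 CPM in AEC2, 326.5 CPM in basophils and 152 CPM in ILC2. Dnajc3 (chr14:118937932-118981702), which encodes the co-chaperone and PERK inhibitor P58IPK, followed with 370.05 CPM in AEC1, 145.95 CPM in AEC2, 91 CPM in ILC2 and 82.3 CPM in basophils. AEC1 kept the highest median of all 3 chaperone genes when values were rescaled to the total over the genes listed in every table (2672.6, 1088.8 and 489.4 CPM). Other orders did not hold. Rescaled medians in AEC2 and basophils were 433.5 and 495.9 CPM for Hsp90b1, and 141.5 and 153.3 CPM for Xbp1. Those of Hspa5 were 933.6 CPM in AEC2, 1237.7 CPM in basophils and 1457.7 CPM in ILC2.

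The remaining chaperone genes were lower. Pdia4 (chr6:47796141-47813512), a protein disulfide isomerase, ranged from 39.2 to 140.7 CPM in AEC2, 15.2 to 216 CPM in AEC1, 0 to 182 CPM in ILC2 and 0 to 117.6 CPM in basophils. Dnajb9 (chr12:44205897-44210068), a DnaJ co-chaperone of BiP, was listed at 0 in 5 of 9 ILC2 and 5 of 7 basophil libraries and reached 128.4 CPM in AEC1. Sdf2l1 (chr16:17130138-17132383), a luminal partner of DnaJ proteins, did not exceed 24.9 CPM in AEC2, 47.2 CPM in AEC1 and 32 CPM in ILC2, and reached 122.1 CPM in basophils. The ranges of each of these 3 genes overlapped between all cell types.

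AEC2 and AEC1 share a file code and were compared directly, averaging over the 3 treatments. Hspa5 and Hsp90b1 were lower in AEC2. Hsp90b1 stood at 150, 387, 345.1, 412.4, 251.5 and 411.8 CPM in the 6 AEC2 libraries, in the order untreated, papain, papain with FK506, and at 772.2, 548.6, 796.2, 1080.5, 961.5 and 1347 CPM in the 6 AEC1 libraries. Every AEC2 value of Hsp90b1 lay under every AEC1 value, as was the case for 4.9% of all genes tested. On the log2 scale AEC2 was lower (-1.42, SE 0.32, limma adjusted p = 0.0147). Hspa5 stood at 436, 774.9, 607.1, 766.5, 1123.4 and 924.7 CPM in AEC2 and at 1595.9, 1068.4, 1366.9, 2250.2, 2692.1 and 3552.8 CPM in AEC1. The groups met only where the AEC2 papain with FK506 replicate 1 exceeded the AEC1 untreated replicate 2, and the log2 difference was -1.28 (SE 0.25, limma adjusted p = 0.00671). Differences are on the log2(CPM + 2) scale, on which the median of all 9841 genes tested was itself -0.45. Hspa5 and Hsp90b1 thus lay 0.83 and 0.97 below that median.

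In that comparison 2 of the 10 genes were called lower and 0 higher, where 8.25% of all genes tested were called lower. Dnajc3 stood at 236, 53.1, 0, 55.9, 292.6 and 273.4 CPM in AEC2 and at 186.3, 94.3, 319.8, 420.3, 492.4 and 638.1 CPM in AEC1, differing by -2.01 on the log2 scale (SE 0.77, limma adjusted p = 0.108). The call for Dnajc3 turned on the library and the tool. Each fit in which Dnajc3 passed left an AEC2 group with 1 library, so only the differences are given. The difference was -2.86 without the AEC2 papain replicate 2, and -2.47 without that library and the untreated replicate 2. On recovered reads it was -1.99 with edgeR and -2.04 with DESeq2. Hspa5 and Hsp90b1 passed in all 24 alternatives, with adjusted p-values of at most 0.0227 and 0.0456. Without the doubtful AEC2 pair their differences were -1.48 and -1.69. The other 7 genes differed by between -1.37 (Sdf2l1) and 0.74 (Xbp1) and did not pass.

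**Figure D2:**
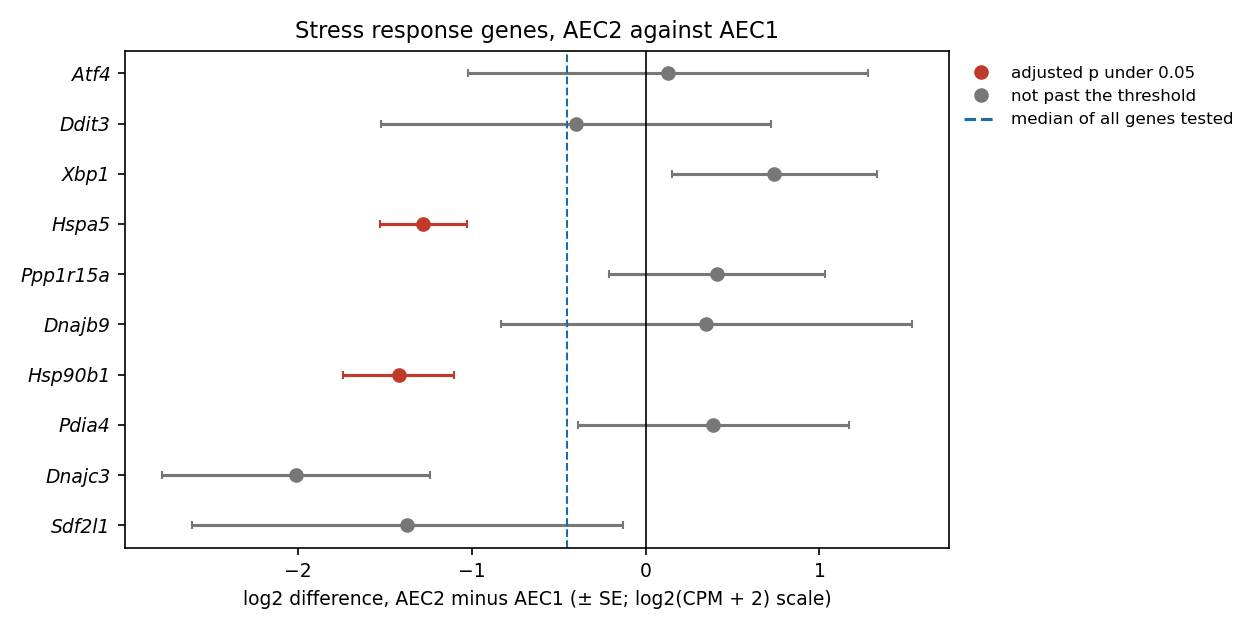
Log2 difference of AEC2 minus AEC1 (log2(CPM + 2) scale) for the 10 genes, averaged over treatments, with bars of 1 standard error. Hspa5 and Hsp90b1 (red) lie left of the dashed median of all genes tested (-0.45) and passed the threshold, while Dnajc3 lies furthest left with a wider error.

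The wider pathway, taken from lists chosen with earlier results of these data known, held genes called in both directions between AEC2 and AEC1. Of all 9841 genes tested, 436 were called higher in AEC2 and 812 (8.25%) lower, and the counts below stand beside those. Of 13 tested stress sensors and kinases 2 were lower in AEC2, Creb3l1 and Creb3l2, which encode ER-anchored transcription factors of the ATF6 kind. Creb3l1 stood at 0 to 86.3 CPM in AEC2 and 97.8 to 403.7 CPM in AEC1 (-3.48, limma adjusted p = 0.0292). Creb3l2 was listed at 0 in all 6 AEC2 libraries and stood at 0 to 87.5 CPM in AEC1. Creb3l2, and Selenom and Aldh18a1 in the lists that follow, passed the filter on low values only through AEC1, which fixed their direction, so their calls are a description. Of 23 other folding factors 2 were lower, the ER reductase gene Dnajc10 (-3.77) and the selenoprotein gene Selenom (listed at 0 in AEC2, 12.7 to 98.8 CPM in AEC1), and the median of that list was -0.94. Among 29 degradation and translocation genes Herpud1, part of the ubiquitin ligase complex of ER-associated degradation, was higher in AEC2 (152.7 to 515.1 against 14.4 to 95.5 CPM), and Ssr3, of the translocon-associated complex, was lower (-2.51). Among 32 integrated stress response and ATF4 target genes the amino acid transporter subunit Slc3a2 was higher (323 to 571 against 71.3 to 193.8 CPM). The transcription factor gene Atf5 (-2.19) and the cysteinyl-tRNA synthetase gene Cars (-3.64) were lower, as was the proline synthesis gene Aldh18a1, listed at 0 in AEC2 and at 0 to 26 CPM in AEC1. Beside these differences, markers of fibroblasts and smooth muscle summed to 6128.8 to 15787.1 CPM in AEC1, with 0 to 5 of 12 at 0, and to 258.9 to 815 CPM in AEC2, with 9 to 11 of 12 at 0. Myeloid markers (macrophages, monocytes, dendritic cells) summed to 283.6 to 629.2 CPM in AEC1, with 10 to 13 of 18 at 0, and to 7107.2 to 15162.4 CPM in AEC2, with 13 to 14 of 18 at 0. The AEC2 sum thus rested on few markers. Csf1r, 1 of the 18, went the other way: it was listed at 0 in all 6 AEC2 libraries and stood at 47.8 to 132.4 CPM in AEC1. The part of fibroblasts, smooth muscle or myeloid cells in the chaperone differences was not tested.

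Within AEC1 none of the 10 genes passed in any treatment comparison with limma. For papain with FK506 against untreated, 0.0245% of 8178 genes tested were called, and 2 of the 10 genes had an unadjusted p under 0.05. Dnajc3 stood at 186.3 and 94.3 CPM untreated, 319.8 and 420.3 CPM with papain, and 492.4 and 638.1 CPM with papain and FK506. The 3 groups did not overlap, and the log2 difference of the last from the untreated group was 1.93 (SE 0.52, limma adjusted p = 0.314). DESeq2 on recovered reads called it (1.77, adjusted p = 0.00547), along with 6.13% of the 7776 genes in that fit, and edgeR did not (1.88, adjusted p = 0.257), with 0.386% called. Hspa5 stood at 1595.9 and 1068.4 CPM untreated, 1366.9 and 2250.2 CPM with papain, and 2692.1 and 3552.8 CPM with papain and FK506, differing by 1.11 on the log2 scale (SE 0.41, limma adjusted p = 0.361) between the last and untreated. Hsp90b1 stood at 772.2 and 548.6, 796.2 and 1080.5, and 961.5 and 1347 CPM in the same order, a difference of 0.67 (SE 0.41, limma adjusted p = 0.584).

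For those 3 genes both papain with FK506 values in AEC1 lay above both untreated values, as did those of 24.9% of all genes tested. The median of all genes in that comparison was 0.3. The 6 chaperone genes together summed to 2677.9 and 1798.8 CPM untreated, 2713.7 and 3892.5 CPM with papain, and 4302.4 and 5775 CPM with papain and FK506. The fibroblast and smooth muscle markers summed to 8220 and 6128.8, 15787.1 and 6467.7, and 14978.4 and 10289.1 CPM in the same libraries. The 11 AEC2 markers summed to 6808 and 10209.1 CPM untreated (2 to 3 at 0), 2538.2 and 1696.5 CPM with papain (3 at 0), and 2045.6 and 4789.2 CPM with papain and FK506 (3 to 4 at 0). The part of these cells in the chaperone values was not tested. Atf4 was listed at 0 in both papain with FK506 libraries and stood at 1.1 and 39.1 CPM untreated. Xbp1 stood at 167.2 and 25.3, 32.8 and 66.6, and 154 and 113.2 CPM, with the untreated libraries at both ends of the range.

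For papain against untreated and for papain with FK506 against papain in AEC1, 0% of genes tested were called, and 1 and 0 of the 10 genes had an unadjusted p under 0.05. The share of all genes called depended on the tool: DESeq2 called 4.24% and 1.14% of 7776 genes, edgeR 0.206% and 0%, and limma with robust empirical Bayes 0.159% and 0% of 8178. All 3 called 0 of the 10 genes in both comparisons. The gene with an unadjusted p under 0.05 was Dnajc3 with papain against untreated (1.47, SE 0.52, limma adjusted p = 0.478). Among the wider lists 0 genes were called in AEC1, and the medians with papain and FK506 against untreated were 1.24 for 13 sensors and kinases, 0.79 for 22 folding factors, 0.29 for 29 degradation and translocation genes and 1.4 for 29 integrated stress response genes.

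**Figure D3:**
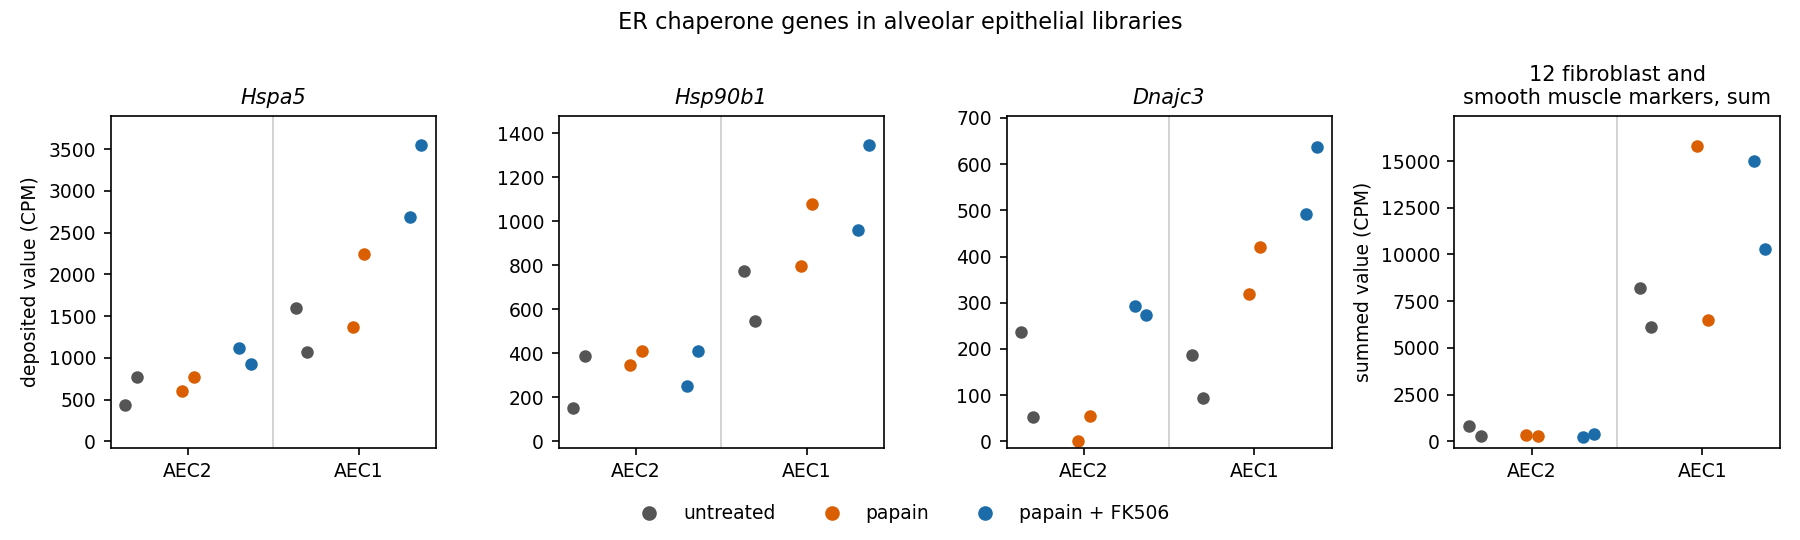
Hspa5, Hsp90b1 and Dnajc3 (CPM, linear axes from 0) in the 12 AEC libraries, 1 point per library, beside the sum of 12 fibroblast and smooth muscle markers. In AEC1 the papain with FK506 points lie above the untreated points in all 4 panels, and in AEC2 the marker sum stays at or under 815 CPM.

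In AEC2 none of the 10 genes passed, and 0% of 6719 genes tested were called in each of the 3 comparisons. Of the 10 genes 8 passed the filter on low values, Atf4 and Ddit3 being too low. Unadjusted p-values under 0.05 numbered 1 for papain against untreated, 2 for papain with FK506 against papain and 1 for papain with FK506 against untreated. edgeR and DESeq2 called 0 of the 10 in each. Dnajb9 stood at 68 and 66.9 CPM untreated and at 73.1 and 71.5 CPM with papain, and was listed at 0 in both papain with FK506 libraries (limma adjusted p = 0.914 against papain). Dnajc3 was at 236 and 53.1 CPM untreated, 0 and 55.9 CPM with papain, and 292.6 and 273.4 CPM with papain and FK506, the last group lying above the others (limma adjusted p = 0.914 against papain). Such groups were common with 2 libraries a side. For papain with FK506 against papain, 16.7% of genes tested were higher and 10.7% lower without overlap. Against untreated these shares were 18.9% and 11%.

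Hspa5 in AEC2 stood at 436 and 774.9 CPM untreated, 607.1 and 766.5 CPM with papain, and 1123.4 and 924.7 CPM with papain and FK506, differing by 0.56 on the log2 scale (SE 0.47, limma adjusted p = 0.914) between the last 2. Ppp1r15a stood at 330 and 275.5, 75.4 and 276.9, and 153.4 and 56.3 CPM in the same order. The last group lay under the untreated values (-1.84, SE 0.89, limma adjusted p = 0.921), as did that of 11% of all genes tested. Xbp1, Pdia4 and Hsp90b1 overlapped between all 3 groups. Without the doubtful pair 0 of the 10 genes passed in all 3 comparisons. The wider lists held 0 called genes in AEC2. Whether the treatments acted differently on AEC2 and AEC1 was tested as an interaction, and 0% of 9841 genes were called for papain against untreated and 0% for papain with FK506 against papain. The smallest unadjusted p among the 10 genes in each was that of Dnajc3, with interaction terms of -4.97 (SE 1.89, limma adjusted p = 0.972) and 4.23 (SE 1.89, limma adjusted p = 0.863).

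In ILC2 none of the 10 genes passed in any comparison with limma, in a fit with the file code as a term. Atf4 stood at 536, 450 and 653 CPM untreated, at 355, 299 and 0 CPM under papain, and at 477, 384 and 294 CPM with papain and FK506. All 3 papain values lay under all 3 untreated values, differing by -3.28 on the log2 scale (SE 0.9, limma adjusted p = 0.52). Ppp1r15a stood at 465, 449 and 542 CPM untreated, at 212, 240 and 21 CPM under papain, and at 404, 390 and 459 CPM with papain and FK506. Its papain group lay under both other groups, by -2.44 from untreated (SE 0.71, limma adjusted p = 0.805), and papain with FK506 was above papain by 1.99 (SE 0.71, limma adjusted p = 0.933). Papain with FK506 lay above papain without overlap in 4.05% of 6271 genes tested. With robust empirical Bayes the difference of Ppp1r15a from untreated passed (limma adjusted p = 0.0393), where 0.112% of all genes tested were called. It passed in 1 of 19 alternatives.

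Of the 9 genes tested for papain against untreated in ILC2, 2 had non-overlapping groups with papain lower (Atf4 and Ppp1r15a), as did 3.03% of 6271 genes tested. The share of all genes called was 0%, and 2 of the 9 had an unadjusted p under 0.05. The size of both differences rested on the papain replicate 3. Without it they were -0.86 for Atf4 and -1.13 for Ppp1r15a, and over replicates 1 and 2 alone, which share a file code, -0.81 and -1.24. In that library 7 of the 10 genes were listed at 0 and 3134 genes were above 0, and AEC2 markers summed to 6674 CPM (3 of 11 at 0), against 119 to 360 CPM in the other papain libraries. The other replicates numbered 3 held AEC2 markers at 4936 and 4099 CPM. The untreated replicate 3 also stood apart: 7 airway secretory and ciliated markers summed to 37948 CPM there (2 at 0), to 0 in the other untreated and all papain libraries, and to at most 129 CPM with papain and FK506. Without it the differences were -2 for Atf4 and -1.94 for Ppp1r15a (limma adjusted p = 1 for both). The part of these cells in the result was not tested. The 22 immediate early genes, which are switched on within minutes of many stimuli, summed to 15220 to 15724 CPM untreated, 10360 to 11828 CPM with papain and 12331 to 15696 CPM with papain and FK506. That order is the one seen for Ppp1r15a, and its part was not tested.

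The chaperone genes in ILC2 showed no such separation with papain. Hspa5 stood at 744, 856 and 1015 CPM untreated, 788, 710 and 408 CPM with papain, and 920, 736 and 1254 CPM with papain and FK506, with overlapping groups. Hsp90b1 stood at 152, 94 and 155, 311, 179 and 0, and 148, 131 and 276 CPM in the same order. Its difference of papain from untreated was -1.56 (SE 1.11, limma adjusted p = 0.985) and turned to 0.96 without the papain replicate 3. Pdia4 reached 83 and 182 CPM in papain replicates 1 and 2, against 15, 15 and 0 CPM untreated, with 0 in replicate 3. Dnajc3 stood at 104, 101 and 91 CPM untreated and at 0, 63 and 85 CPM with papain and FK506, so that these groups did not overlap (-2.25, SE 1.46, limma adjusted p = 0.994). Of all genes tested in that comparison 3.24% were lower without overlap. For papain with FK506 against papain 0.0159% of genes were called, and for papain with FK506 against untreated 0%, with 2 and 0 of the 9 genes at an unadjusted p under 0.05. The wider lists held 0 called genes in ILC2.

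In basophils 4 genes were called higher with papain than in the untreated library, and the same 4 with papain and FK506. With 1 untreated library, a gene could pass the filter on low values (10 CPM in at least 3 libraries) only through treated libraries. Atf4, Xbp1 and Dnajc3 were under 10 CPM untreated, so the filter fixed their direction, and their calls are a description. Ppp1r15a was above 10 CPM in all 7 libraries. Atf4 stood at 0.5 CPM untreated, which was 1 read, at 450.4, 534.2 and 271.7 CPM under papain and at 467.4, 501.5 and 257.5 CPM with papain and FK506 (limma adjusted p = 5.37e-06 and 5.71e-06). Its ratio to the untreated library was 871 with papain, with an exact Poisson interval at 95% of 156 to 3.44e+04 for the single read alone. Xbp1 was listed at 0 untreated and stood at 62.4, 196.5 and 65.8 CPM under papain and at 134.4, 99.4 and 106.6 CPM with papain and FK506 (limma adjusted p = 0.00116 and 0.000865). A floor of 3 reads in the untreated library, which allows for counting noise alone, put the lowest papain library 43.2-fold higher. The lowest papain with FK506 library was 68.9-fold above that floor. Papain replicate 5, the highest library, was 136-fold above it, and replicate 6 was 45.6-fold. Libraries of 1 group differed by more than counting noise: in AEC2 with papain and FK506, Atf4 had 160 reads in replicate 1 and 0 in replicate 2. The folds over the floor are therefore a description and no lower bound. Ppp1r15a stood at 26.9 CPM untreated, at 445, 351.6 and 337.2 CPM under papain and at 307.2, 382.7 and 413.1 CPM with papain and FK506, differences of 4.07 and 3.99 (SE 0.61 each, limma adjusted p = 0.000199 and 0.000234). Dnajc3 stood at 6.7 CPM untreated, at 50.9, 108.6 and 97.2 CPM under papain and at 77.7, 187.9 and 82.3 CPM with papain and FK506, differences of 3.57 and 3.91 (SE 1.02 each, limma adjusted p = 0.0189 and 0.0109).

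These calls rest on 1 untreated library, assumed to vary like the others, in which 2002 genes were above 0. In each of these comparisons 21.1% of 5853 genes tested were called higher, and the median of all genes was 3.05 with papain and 3.09 with papain and FK506. The fitted differences lay above that median for Atf4 by 4.42, Xbp1 by 2.6, Ppp1r15a by 1.02 and Dnajc3 by 0.52 with papain. When only the 1710 genes above 0 in the untreated library were used, chosen after seeing the data, the median was -0.26. Atf4 and Dnajc3 could still pass the filter on low values only through treated libraries, so their direction stayed fixed in that fit. Atf4 and Ppp1r15a then passed with papain, and Dnajc3 did not (3.47, limma adjusted p = 0.0598), while Xbp1 was not among the genes. The 8 endothelial markers summed to 2664.9 CPM in the untreated library (4 at 0) and 103.4 to 2215.6 CPM with papain (0 to 2 at 0). The 12 fibroblast and smooth muscle markers summed to 4789.8 CPM untreated (7 at 0), 257 to 991.8 CPM with papain (3 to 5 at 0) and 2342.9 to 3453.1 CPM with papain and FK506 (0 to 1 at 0). The 11 AEC2 markers summed to 744.8 CPM untreated (6 at 0), 888 to 1827.9 CPM with papain (2 at 0) and 2438.9 to 11426.1 CPM with papain and FK506 (1 to 2 at 0). The 18 myeloid markers summed to 13440.9 CPM untreated (3 at 0), 25890.3 to 36163.8 CPM with papain (1 to 2 at 0) and 3430.4 to 22201.3 CPM with papain and FK506 (0 to 2 at 0). The part of these cells in the result was not tested.

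The chaperone genes Hspa5 and Hsp90b1 did not share the higher values of treated basophils. Hspa5 stood at 1208.1 CPM untreated, at 597.3, 679.6 and 1067.8 CPM under papain and at 672.9, 802.6 and 1343.2 CPM with papain and FK506. Hsp90b1 stood at 837.2 CPM untreated, above all 6 treated libraries, which ranged from 187.3 to 587.4 CPM (limma adjusted p = 0.365 with papain and 0.144 with papain and FK506). Pdia4, Sdf2l1, Ddit3 and Dnajb9 were listed at 0 in the untreated library. With papain Sdf2l1 stood at 39.1, 52.7 and 122.1 CPM (limma adjusted p = 0.0831), Pdia4 at 27.2, 81.4 and 19.4 CPM (limma adjusted p = 0.172) and Ddit3 at 42.9, 4.5 and 23.9 CPM (limma adjusted p = 0.3). Dnajb9 was at or under 26.9 CPM in all 7 libraries and was not tested.

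Papain with FK506 against papain in basophils had 3 libraries on each side, and 0% of genes were called. None of the 9 genes tested passed with limma, and 0 had an unadjusted p under 0.05. The groups of all 9 overlapped. Differences ran from -2.38 for Sdf2l1 (SE 1.44) to 0.34 for Dnajc3 (SE 0.72), with Atf4 at -0.08 (SE 0.5) and Ppp1r15a at -0.08 (SE 0.43). Against the untreated library, 5 of 15 folding factors, 13 of 26 degradation and translocation genes and 7 of 21 integrated stress response genes were called higher with papain, and 0 were lower, where 21.1% of all genes were called higher. Lists outside the pathway also held genes called higher, 5 of 9 cytosolic heat shock genes and 7 of 21 immediate early genes. These counts, too, rest on genes that could pass the filter only through treated libraries. The immediate early gene Nr4a1 was called lower, at 769.1 to 1450.7 CPM with papain against 4287.4 CPM untreated. The 3 called genes with the largest fitted difference in the folding list were the disulfide isomerase genes P4hb (124.2 to 319.8 CPM with papain) and Pdia6 (88.4 to 274.8 CPM) and the glycoprotein sensor gene Uggt1 (103.7 to 156.9 CPM). In the degradation and translocation list they were the translocon gene Sec61b (185.5 to 413.2 CPM), the signal peptidase gene Spcs1 (72.1 to 282 CPM) and Ubxn4 (107.6 to 221.5 CPM). In the integrated stress response list they were Slc3a2 (311.8 to 616.7 CPM), the asparaginyl-tRNA synthetase gene Nars (133.1 to 290 CPM) and Cebpb (163.2 to 237.5 CPM). All 9 stood at 0 or 0.5 CPM in the untreated library, so no fold is given. With papain and FK506 the counts were 5, 12 and 8, and 1 of 9 sensors and kinases, Ppp1r15b, was also higher (53.9 to 83.3 CPM, listed at 0 untreated).

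**Figure D4:**
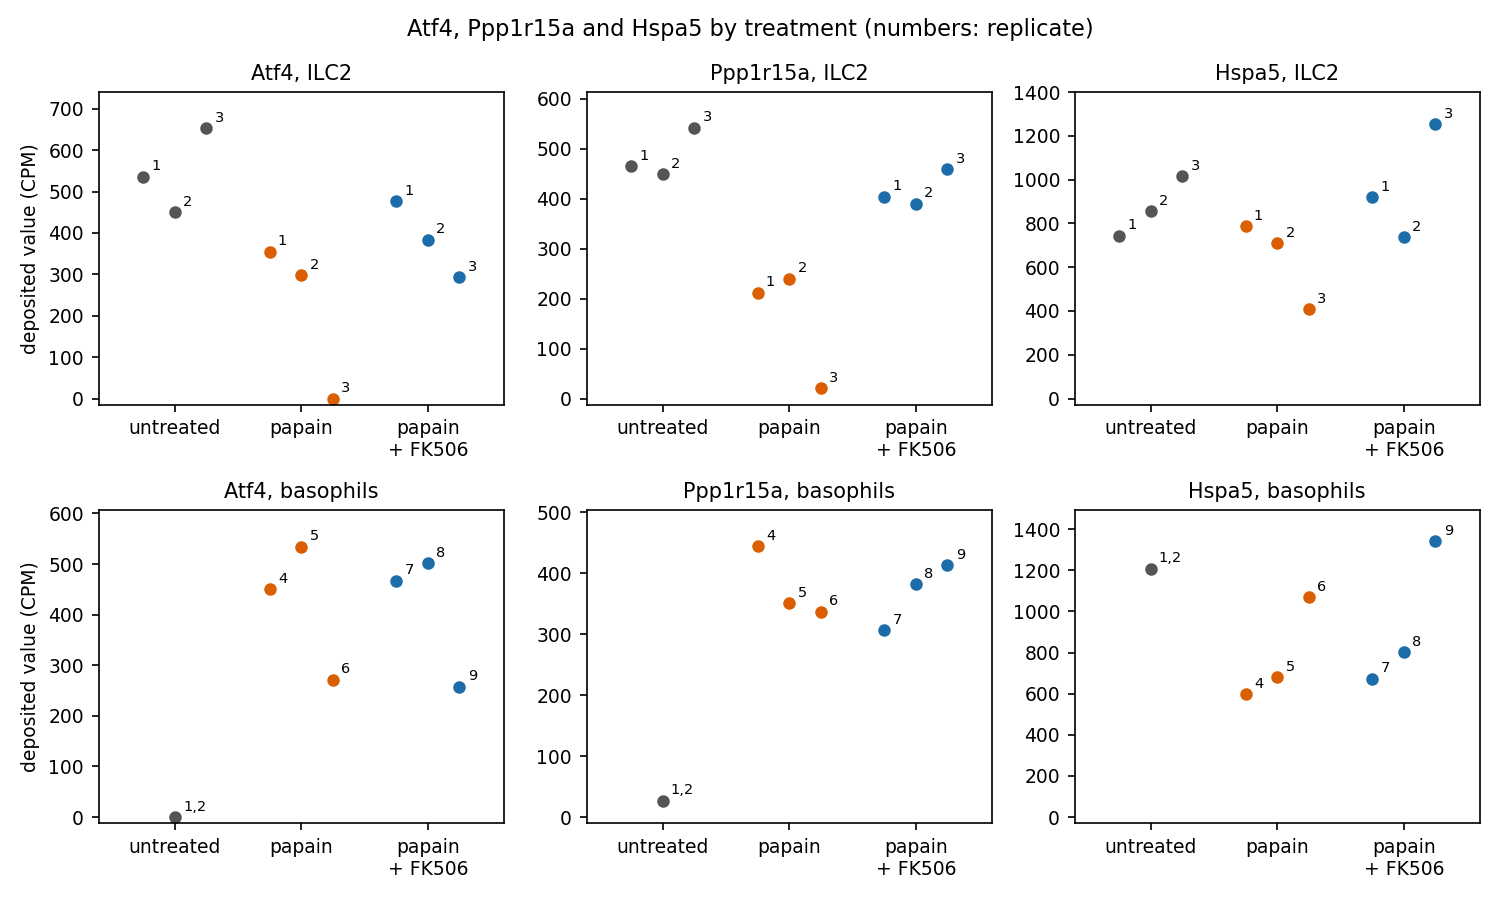
Atf4, Ppp1r15a and Hspa5 (CPM, linear axes from 0) in ILC2 (top) and basophils (bottom) by treatment, 1 point per library with its replicate number. In ILC2 the papain points of Atf4 and Ppp1r15a lie under the untreated points, with replicate 3 at 0 and 21 CPM, and in basophils the single untreated point lies lowest for these genes but not for Hspa5.

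How the genes varied together was described over the 28 libraries after centring each cell type, for the 7 of 10 that passed the filter in every cell type. Hspa5 and Hsp90b1 had the highest correlation of the 21 pairs (Pearson r = 0.66), followed by Hspa5 and Dnajc3 (0.52) and Ppp1r15a and Dnajc3 (0.51). The lowest was that of Xbp1 and Hsp90b1 (-0.22). Among 3327 genes the ones most like Hspa5 were Gnb1 (0.72), Gna13 (0.72) and Commd6 (0.69), and the ones most like Hsp90b1 were Nme2 (0.9), Pomp (0.9) and Rhoa (0.89). Genes among those most like Dnajc3 were Naa15 (0.87) and Eif4ebp2 (0.86), and most like Xbp1 were Rnf149 (0.85), Tram1 (0.83) and Lgals3 (0.83). Ppp1r15a was most like Ubxn4 (0.83), Rhob (0.82) and Tra2b (0.82). Pdia4 was most like Tmem123 (0.79), Cdc123 (0.77) and Cic (0.74), and Sdf2l1 was most like Tmem173 (0.77), Syvn1 (0.76) and Trappc3 (0.75). Points of these correlations share library depth and table, and no p is given.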

How the data were processed

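RNA of sorted cells (10 ng) was made into 3' end libraries with a Lexogen QuantSeq kit, per the labels. STAR 2.7.0c and featureCounts 1.6.0 appear in the submitters' processing notes, as do mm10 and GRCm38.p6, without roles. The authors deposited CPM in 18 tables. The other 10 tables, those of ILC2 and the AEC2 untreated replicate 1, hold whole numbers, treated as a score: deposited CPM values rounded by the authors. What the values were divided by, the strand setting and the handling of ambiguous reads are not given in the sources used here.

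Values were divided by TMM factors (edgeR 4.0.16), 2 was added, and log2 values were fitted per cell type with limma 3.58.1 in R 4.3.3 (trend of variance on expression, two-sided, Benjamini-Hochberg over all genes, threshold 0.05). Genes needed 10 CPM in at least 2 AEC libraries or 3 ILC2 or basophil libraries. The planned count test gave way to limma because the tables hold no raw counts. Whole reads, recovered from the steps of the CPM values in all 6 AEC1, 5 AEC2 and the untreated basophil libraries, were tested with edgeR and DESeq2 1.42.0 as alternatives, without the rounded AEC2 library, whose group then had 1 library assumed to vary like the others. The fits were run on simulated data with the same noise level for every gene. That level was not taken from these libraries, so the run does not show how the fits do on them. The members, lists, motifs and tests were chosen with earlier results of these data known. All 10 members were named. Up to 3 called genes of each list, and the 3 genes most like each member by correlation, were named by size, except for an item that is not reported here. Alternatives were other pseudocounts, filters, scalings, tools and left-out libraries. Whether replicate numbers pair samples was checked by the correlation of deviations from group means, which was -0.02 to 0.02 in AEC1 and 0.05 to 0.23 in ILC2. In AEC2 it was 0.45 for untreated with papain, the pair that holds the near-identical libraries, and -0.01 otherwise. The numbers were not taken to pair samples. Sequence ends were compared with blastn 2.17.0+.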

Additional observations from a re-analysis of the deposited data

Results flagged for a closer look

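Some genes had groups that did not overlap and lay in opposite directions in cell types that were not tested against each other, so the difference between cell types was not tested. All are fitted log2 differences, those of basophils are against 1 untreated library, and those of Atf4 involve libraries at 0 or 1 read. With papain against untreated, Atf4 was at -3.28 in ILC2 and at 7.47 in basophils, and Ppp1r15a at -2.44 in ILC2 and at 4.07 in basophils. Hsp90b1 was at 0.53 in AEC1 and at -0.76 in basophils. With papain and FK506 against untreated, Atf4 was at -2.54 in AEC1 and at 7.39 in basophils, and Ppp1r15a at -1.84 in AEC2 and at 3.99 in basophils. Hsp90b1 was at 0.67 in AEC1 and at -1.31 in basophils. Dnajc3 was at -2.25 in ILC2, against 1.15 in AEC2, 1.93 in AEC1 and 3.91 in basophils. Of these, the basophil values of Atf4, Ppp1r15a and Dnajc3 passed the limma threshold. For Atf4 and Dnajc3 the filter on low values had fixed the basophil direction beforehand, so those calls are a description. Groups that do not overlap were common: with papain against untreated, 55.5% of all genes tested in basophils and 19.2% in AEC1 were higher without overlap, 13.6% in basophils lower and 3.03% in ILC2 lower. With papain and FK506 against untreated, 54.5% in basophils, 24.9% in AEC1 and 18.9% in AEC2 were higher, and 13.8%, 14.4% and 11% lower, with 3.24% lower in ILC2. The median of all genes in basophils was 3.05 with papain and 3.09 with papain and FK506.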

How the results depend on the processing

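Over all alternatives, the 10 calls among 138 pairs of gene and comparison kept their direction. For Atf4, Xbp1 and Dnajc3 in basophils against the untreated library, the filter on low values had fixed that direction beforehand. Their kept direction is therefore no sign of stability. Of the 128 pairs that were not called, 73 had the other sign under at least 1 alternative. The number of the 10 genes called moved by more than 1.5 times in 3 cases. It was 1 in place of 0 for AEC1 papain with FK506 against untreated with DESeq2 (Dnajc3), 1 in place of 0 for ILC2 papain against untreated with robust empirical Bayes (Ppp1r15a), and 2 in place of 4 for basophil papain against untreated over genes above 0 in the untreated library. With a pseudocount of 10, Dnajc3 in that basophil comparison gave 2.64 (limma adjusted p = 0.0624). Leaving out 1 library changed which of the 10 genes were called only in AEC2 against AEC1 and in both basophil comparisons with untreated. With all libraries, 8.25% of all genes tested were called lower in AEC2, and 21.1% were called higher in each of those basophil comparisons. The genes gained were Dnajc3 in AEC2 against AEC1, Sdf2l1 in both basophil comparisons without the papain with FK506 replicate 7, and Pdia4 without replicate 8. Sdf2l1 and Pdia4 were listed at 0 in the untreated basophil library, so the filter on low values had fixed their direction too. Each was also listed at 0 in the library left out, and both gains are a description. Without the untreated basophil library no comparison with untreated could be made.

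With the replicate block, 2 genes were called for AEC2 against AEC1 and 0 in the AEC2, AEC1, ILC2 and interaction comparisons, as without it. No paired analysis was possible for basophils because their groups share no replicate number. The file headers number some ILC2 replicates differently from the titles. Pseudocounts moved the basophil median of all genes from 1.6 to 4.45. In AEC, Atf4 rested on 0 to 3 reads in most libraries, against 160 in the AEC2 papain with FK506 replicate 1 and 34 and 11 in AEC1 libraries. The depth of ILC2 and treated basophil libraries is unknown.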
